A study of Homo sapiens with 12 samples.

Results

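The olfactory receptor genes of chromosome 11 were followed in 12 RNA sequencing libraries of HT1080, a human fibrosarcoma cell line. Members were the rows of the deposited count table that were annotated as protein coding, lay on chromosome 11 and carried an olfactory receptor symbol. This rule, which uses no measured value, gave 33 of the 36502 genes in the table. The table lists a gene only if it had at least 1 read in the 12 libraries together, so coding olfactory receptor genes of the chromosome that are not in it were not analysed here.

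Olfactory receptors are G protein-coupled receptors that bind odorants on sensory neurons of the nose. Each mature olfactory neuron transcribes mainly a single receptor gene, and the many others are kept silent in repressive chromatin. Most human receptor genes stand in clusters, many of them on chromosome 11. The class I receptors, among them families 51 and 52, form a cluster on its short arm that surrounds the β-globin genes, and class II receptors fill the other clusters. In cells other than olfactory neurons the clusters are mostly silent and often lie in chromatin that touches the nuclear lamina.

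Both cell lines used here carry a tracer that binds DNA methylated on adenine by Dam fused to lamin B1 (Dam-LMNB1), and so marks chromatin that has met the lamina. In the m6A-Tracer-VP16 clone (VP16 clone) the tracer is joined to the VP16 activation domain, and the m6A-Tracer clone (GFP clone) carries the GFP tracer. Each is 1 clone, so the clone and its transgene cannot be told apart. In VP16_tracer_Dam and GFP_tracer_Dam, cells spent 3 days with doxycycline and then 24 h without it, which induces the tracer, with 500 nM Shield1 in those hours to induce Dam-LMNB1. VP16_tracer and GFP_tracer were treated in the same way without Shield1. VP16_uninduced and GFP_uninduced had 50 ng/ml doxycycline for 4 days, which keeps the tracer off. Each of the 6 groups had 2 libraries, numbered 1 and 2 by index set (the libraries reuse 6 index sequences in 2 sets). The labels do not state whether both libraries of a group were grown separately, so the p-values cover no more than how far these libraries differ, and that difference may be technical. The question the design allows is whether RNA of this usually silent family changes when an activator is brought to chromatin at the lamina.

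Libraries held 18774905 to 24827396 counted reads. Of the mesenchymal markers chosen for HT1080, 7 of 8 reached 1 CPM (reads per 1000000 counted in the library), led by VIM, while 1 of 4 blood markers and 3 of 5 epithelial markers did. In the set of 6 olfactory neuron markers 1 did, ADCY3, an adenylyl cyclase that other cells also use. The first libraries of GFP_tracer_Dam and GFP_tracer stood apart: LMNB1, the lamin B1 gene, had 30.1 and 37.6 CPM in them and 122.6 to 203.4 CPM in the other 10 libraries. Values without this pair are given where leaving it out changed the call of a named gene, or moved its difference or a median of the members by more than 1.5 times.

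The 33 genes fell into 10 that were read in every library and 23 that were almost silent. The 10 stood next to each other in the class I cluster, and no other member lay among them. In order they were OR51B4, OR51B2, OR51B6, OR51B5, OR51M1, OR51J1, OR51Q1, OR51I1, OR51I2 and OR52D1. The run covers chr11:5322244-5510979 on GRCh37, a length of 189 kb. These 10 genes held 14242 of the 14307 reads of the family, or 99.55%. Their totals over the 12 libraries went from 445 reads for OR51J1 to 5181 for OR51B4. The 23 other members shared 65 reads.

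**Figure D1:**
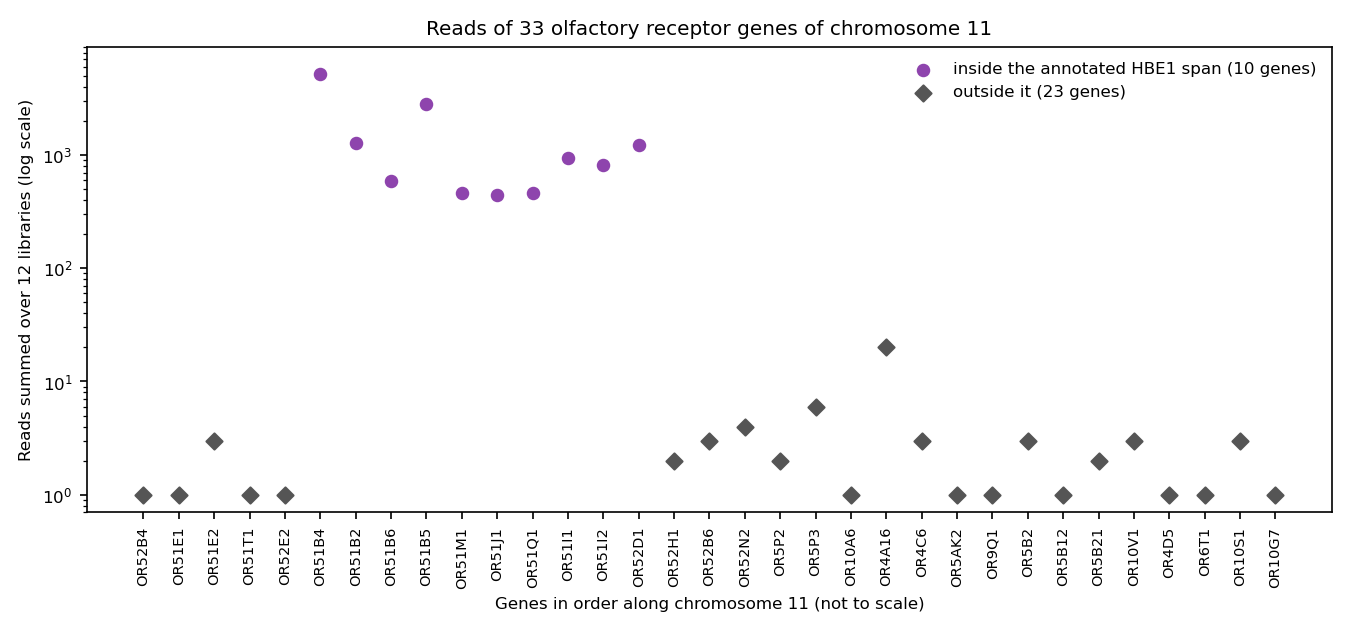
Reads summed over the 12 libraries (log scale) for each of the 33 genes, placed in their order along chromosome 11 and not to scale. The 10 genes inside the annotated span of HBE1 had 445 to 5181 reads, and the 23 others had 1 to 20.

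The borders of the run were sharp. OR52E2, the nearest member before it, lay 241 kb away and had 1 read in all. OR52H1, the nearest member after it, lay 54.7 kb away and had 2 reads. All 10 genes of the run lie inside the span that the table gives to HBE1, the embryonic β-like globin gene (chr11:5289582-5526847). The span of HBG2, a fetal globin gene, also covers them (chr11:5274420-5667019). The span of AC104389.28 (chr11:5326206-5526882) covers all of them except OR51B4. With the 10, 17 genes of the table other than HBE1 lie inside its span, and each had at least 87 reads.

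HBE1 itself had 16119 reads and AC104389.28 had 26899, both more than any member. HBE1 stood at 34.7 to 45.7 CPM in the 6 VP16 libraries and 69.9 to 92.2 CPM in the 6 GFP libraries. The 5 olfactory receptor pseudogenes that lie in the run, which encode no working receptor, had 2178 reads. HBG2, although its span reaches further, had 136 reads, and OR52H1 and OR52B6 inside its outer part had 2 and 3. In GENCODE 29, 6 members of the run are on the plus strand and hold 4007 reads, while 4 members on the minus strand, that of HBE1, hold 10235. The strand setting of the counting is not given in the sources used here, so reads of a receptor and of a transcript that crosses it on the opposite strand cannot be told apart. What part of these counts came from transcripts of the surrounding genes was not tested.

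Levels within the run were compared per kb of annotated span, for the 8 genes with a span under 1500 bases. OR51B4 led with 13.8 CPM per kb in the VP16 clone and 25.1 CPM per kb in the GFP clone. OR51B5 followed at 8.36 and 11.5 CPM per kb, OR51B2 at 2.82 and 6.24, and OR52D1 at 3.44 and 5.18. OR51I2 had 2.35 and 3.34 CPM per kb in the same clones. OR51J1, OR51M1 and OR51Q1 came last, between 1.30 and 1.42 CPM per kb in the VP16 clone and between 1.76 and 2.05 in the GFP clone, and their libraries overlapped. OR51B6 and OR51I1 have annotated spans that run across neighbouring receptors, and no level per kb is given for them. The span of OR51B6 overlaps OR51B2 and OR51B5, and that of OR51I1 overlaps OR51I2, so reads of these 3 may also be split or lost by the counting, and the order is that of the reads as counted. OR51J1 is annotated as an unprocessed pseudogene in GENCODE 29, although the table calls it protein coding.

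The largest difference in the run was between the clones. OR51B2 was lower in the VP16 clone, and it was the only member whose VP16 and GFP libraries did not overlap. Its lowest, median and highest library had 2.34, 2.84 and 3.75 CPM in the VP16 clone, against 4.795, 6.795 and 8.31 CPM in the GFP clone. By edgeR's quasi-likelihood test with Benjamini-Hochberg adjustment over 17262 genes, its log2 difference between the clones was -1.11 ± 0.19 (SE, 6 libraries each; adjusted p = 0.0102). It was 1 of 10 members tested that passed an adjusted p of 0.05, and the 23 others did not pass the filter on low counts in this fit. With no filter edgeR tested all 33, and none of the 23 passed in any comparison. In that comparison 5.01% of all genes tested were called lower and 7.64% were called in either direction. Clones without overlap and with the VP16 clone lower were seen for 6.97% of all genes tested, so 1 of 10 is near this background.

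The other 9 members also had negative log2 differences, without passing the test. The median over the 10 was -0.50, and over all genes tested it was 0.0016. OR51B4 had 11.9, 13.5 and 16.1 CPM as its lowest, median and highest VP16 library, against 14.3, 27.7 and 30.9 CPM in the GFP clone. Its difference was -0.83 ± 0.22 (SE; edgeR adjusted p = 0.0543), and the overlap came from the first library of GFP_tracer_Dam, at 14.3 CPM. The other library of the pair that stands apart, GFP_tracer 1, had 16.7 CPM. Without this pair the edgeR value of OR51B4 was -1.12 (adjusted p = 0.00214) and that of OR51B2 was -1.31 (adjusted p = 0.00461).

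OR52D1, at the far end of the run, had 2.97, 3.67 and 4.56 CPM as its lowest, median and highest VP16 library, against 4.24, 5.49 and 7.19 CPM in the GFP clone. Its log2 difference was -0.55 ± 0.14 (SE; edgeR adjusted p = 0.0523), just outside the threshold. The remaining 7 lay between -0.53 for OR51M1 and -0.33 for OR51Q1, with adjusted p from 0.112 to 0.413 by edgeR. Without the pair that stands apart they lay between -0.58 for OR51J1 and -0.060 for OR51Q1, with OR51B5 at -0.21 in place of -0.45. HBE1 differed by -0.99 ± 0.07 (SE; edgeR adjusted p = 0.000279) and AC104389.28 by -0.26 ± 0.15 (edgeR adjusted p = 0.348). The clone differences of OR51B4 and OR51B2, the members nearest to the globin genes, were thus close in size to that of HBE1. With all 12 libraries those of the other 8 lay between the values of HBE1 and AC104389.28. This likeness is between clones only, since HBE1 and the run moved in opposite directions within the VP16 clone (values below). Differences between these genes were not tested.

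With the index set as a block in the edgeR fit, 5 members passed, all lower in the VP16 clone. They were OR51B2 (adjusted p = 0.00184), OR51B4 (0.00722), OR52D1 (0.0145), OR51B5 (0.0482) and OR51I2 (0.0483). The block raised the share of all genes called lower to 11.9%, and of those called in either direction to 20.9%. Over the 10 members the median with the block was -0.49 (0.0079 over all genes). Without the pair that stands apart it was -0.46 (0.0079 over all genes).

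**Figure D2:**
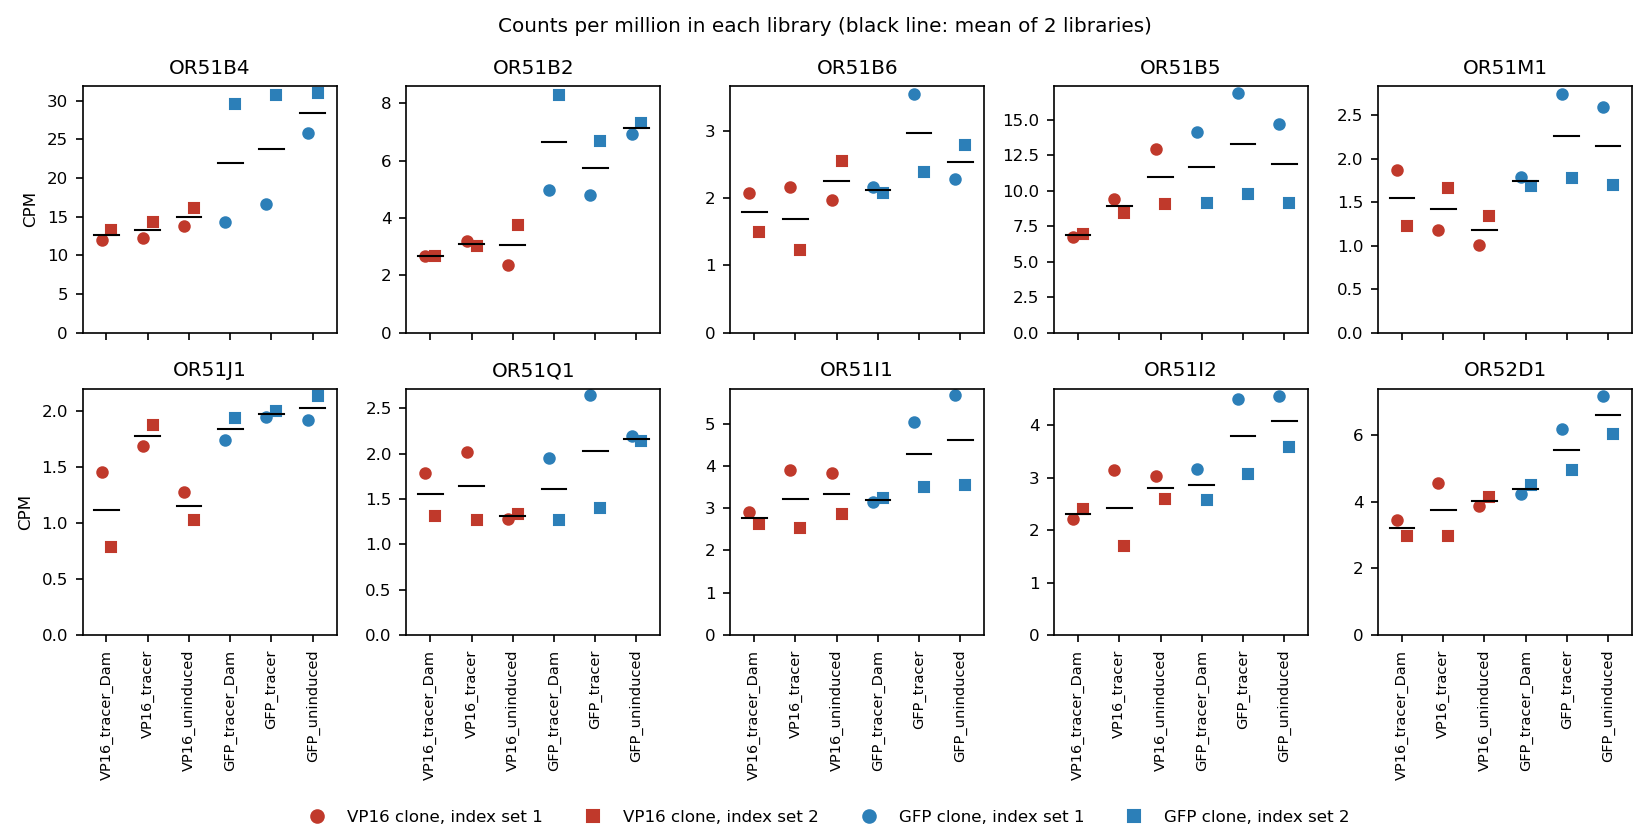
CPM for the 10 genes of the run, 1 panel each; points are libraries (circle, index set 1; square, index set 2), red for the VP16 clone and blue for the GFP clone, and black lines are means of 2 libraries. OR51B2 is the gene whose 6 VP16 libraries, at up to 3.75 CPM, all lie under its 6 GFP libraries, which start at 4.795 CPM.

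The summed level of the run was no higher with Dam-LMNB1 and the VP16 tracer than without them. Summed over its 10 genes, the level was 37.1 and 35.6 CPM in VP16_tracer_Dam, 43.4 and 38.9 CPM in VP16_tracer, and 45.3 and 44.7 CPM in VP16_uninduced. In the GFP clone it was 51.6 and 64.4 CPM in GFP_tracer_Dam, 65.0 and 66.2 CPM in GFP_tracer, and 73.9 and 69.3 CPM in GFP_uninduced. In both clones the Dam-LMNB1 libraries were the lowest and the uninduced libraries the highest, with no overlap between these groups. HBE1 went the other way in the VP16 clone, with 45.7 and 41.6 CPM in VP16_tracer_Dam against 34.7 and 36.2 CPM in VP16_uninduced. AC104389.28 had 81.8 and 73.2 CPM against 123.8 and 90.2 CPM in the same groups. In the GFP clone the Dam-LMNB1 and uninduced libraries overlapped for both genes. In bulk RNA, fewer cells with a transcript and less of it per cell cannot be told apart.

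The sum over all 33 members averaged 36.6 ± 1.22 CPM in VP16_tracer_Dam, 41.3 ± 3.25 in VP16_tracer and 45.2 ± 0.552 in VP16_uninduced (SD, n = 2 each). In the GFP clone the averages were 58.5 ± 8.51 CPM in GFP_tracer_Dam, 65.9 ± 0.488 in GFP_tracer and 71.8 ± 3.44 in GFP_uninduced (SD, n = 2 each). Within an index set, the log2 ratio of VP16_tracer_Dam to VP16_uninduced was -0.28 in set 1 and -0.33 in set 2. The ratio of GFP_tracer_Dam to GFP_uninduced was -0.50 in set 1, whose Dam-LMNB1 library is of the pair that stands apart, and -0.10 in set 2. The direction was the same in each set, and no test was made of sums over members.

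Gene by gene, no member passed edgeR's quasi-likelihood test in any of the 6 comparisons of conditions within a clone, and neither did any other gene (0.0% of 17262). At an unadjusted p under 0.05 there were 53 to 228 genes in a comparison, and DESeq2 called none either. These counts lie under the share of 0.05 that would be found with no difference at all, so the edgeR fit was conservative here. Its lack of calls does not show that no gene changed. The fit to the VP16 libraries alone with the block, given below, called 1573 genes for VP16_tracer_Dam against VP16_uninduced. For VP16_tracer_Dam against VP16_tracer, the median log2 difference of the 10 members was -0.16 (0.0031 over all genes), and 2 of 10 were positive. For GFP_tracer_Dam against GFP_tracer it was -0.34 (0.0009 over all genes), with 1 of 10 positive. The members' SE lay between 0.24 and 0.39 in these 6 comparisons. Both medians moved when 1 library was left out, where the filter also passed OR4A16 in 11 of 12 fits. The VP16 median lay between -0.39 (without VP16_tracer 2) and -0.067 (without VP16_tracer 1), and with the block it was 0.016 without VP16_tracer 1. The GFP median lay between -0.51 (without GFP_tracer 2) and -0.12 (without GFP_tracer 1), and it was -0.091 without the pair that stands apart.

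OR51J1 had the most negative value in the VP16 clone, with 1.46 and 0.787 CPM in VP16_tracer_Dam against 1.69 and 1.88 CPM in VP16_tracer. The log2 difference was -0.68 ± 0.31 (SE; edgeR adjusted p = 1), and it was -0.33 without VP16_tracer_Dam 2. Its libraries did not overlap. Of the 10 members 3 were lower in this comparison with no overlap, as were 8.5% of all genes tested, and no test was made of that count. OR51B5 had 6.74 and 6.95 CPM in VP16_tracer_Dam, 9.39 and 8.41 CPM in VP16_tracer, and 12.9 and 9.05 CPM in VP16_uninduced. Its Dam-LMNB1 libraries were the lowest of the clone, and its log2 difference between VP16_tracer_Dam and VP16_uninduced was -0.71 ± 0.35 (SE; edgeR adjusted p = 1). Without 1 library it lay between -0.95 (without VP16_uninduced 2) and -0.43 (without VP16_uninduced 1), and with the block between -1.01 and -0.38. In a fit to only the 6 VP16 libraries that took the index set as a block, an alternative chosen after seeing the data, OR51B5 passed at -0.69 (edgeR adjusted p = 0.00165). That fit called 1573 genes, 9.75% of those tested, and 4.17% were called lower, so 1 of 10 members is near this background.

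VP16_tracer against VP16_uninduced, which asks about the tracer without Dam-LMNB1, gave a member median of -0.091 (-0.0030 over all genes). GFP_tracer against GFP_uninduced gave -0.11 (0.0067 over all genes). In every comparison with uninduced cells, the tracer and the 24 h without doxycycline cannot be told apart. For Dam-LMNB1 against uninduced the medians were -0.28 in the VP16 clone and -0.34 in the GFP clone (0.0035 and 0.0144 over all genes). The tracer medians were small and turned positive without 1 library: the VP16 median was 0.047 without VP16_tracer 2, and the GFP median was 0.10 without GFP_tracer 2 and 0.058 without GFP_uninduced 1. Without the pair that stands apart, the GFP tracer median was -0.27. The VP16 median for Dam-LMNB1 against uninduced was -0.18 without VP16_uninduced 2. The comparisons within a clone share libraries, so their values are not independent of each other. The difference between clones in the response to Dam-LMNB1 had a member median of 0.15 (0.0028 over all genes) and called 0.0% of genes and no member. The sign of this median was not stable: it was -0.085 without the pair that stands apart, -0.088 without GFP_tracer 1 and -0.064 without VP16_tracer 2. The members' SE lay between 0.35 and 0.54.

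**Figure D3:**
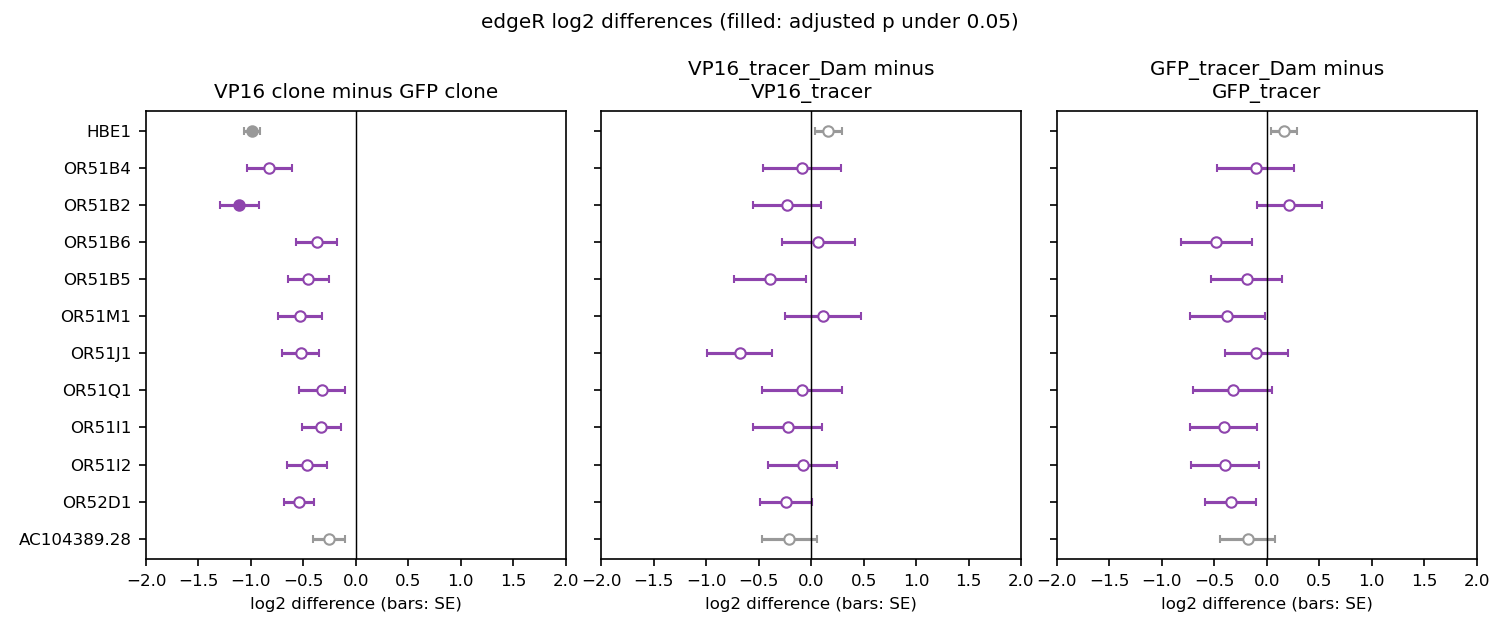
edgeR log2 differences with SE (bars) for the 10 genes of the run in their order, between HBE1 above and AC104389.28 below; filled points passed an adjusted p of 0.05. Between the clones all 10 lie under 0, with OR51B2 at -1.11, whereas for Dam-LMNB1 no point is filled in either clone.

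The balance of the leading members of the run, OR51B4 and OR51B5, varied between libraries. OR51B4 had 1.77 and 1.90 reads for each OR51B5 read in VP16_tracer_Dam, 1.30 and 1.70 in VP16_tracer, and 1.06 and 1.78 in VP16_uninduced, in the order of index sets 1 and 2. In the GFP clone the ratio was 1.01 and 3.24 in GFP_tracer_Dam, 0.988 and 3.15 in GFP_tracer, and 1.75 and 3.40 in GFP_uninduced. In each of the 6 groups it was higher in index set 2. In the GFP clone OR51B4 averaged 18.9 CPM in set 1 and 30.4 CPM in set 2, while OR51B5 averaged 15.3 CPM in set 1 and 9.33 CPM in set 2. The low OR51B4 libraries include the pair with little LMNB1, and the part of either in the ratio was not tested.

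**Figure D4:**
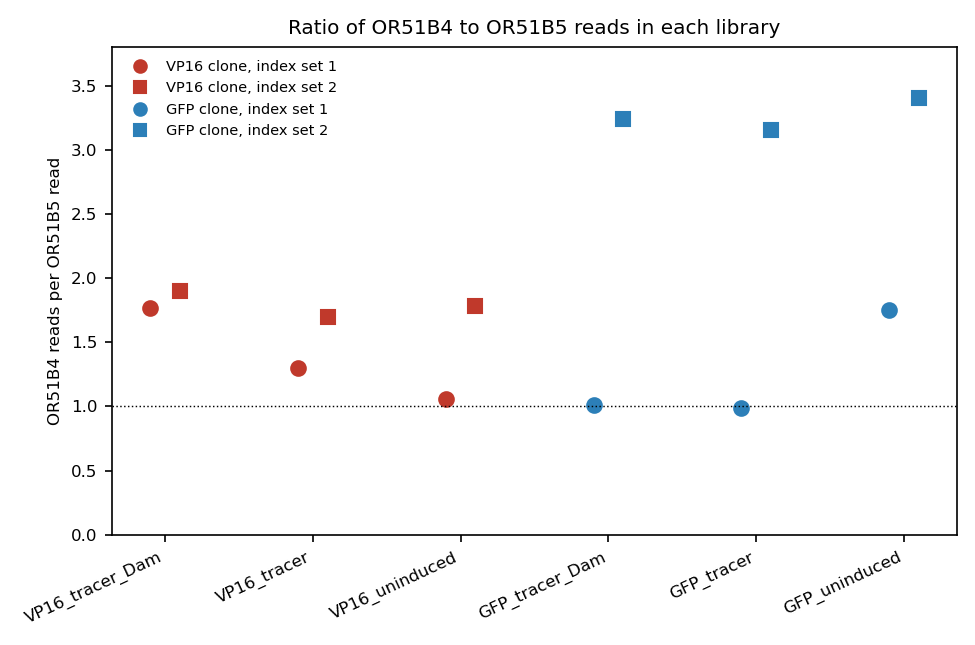
OR51B4 reads per OR51B5 read in each library, with the VP16 clone in red, the GFP clone in blue, circles for index set 1 and squares for index set 2. The GFP libraries of set 2 lie between 3.15 and 3.40, above all other libraries, and the dotted line marks equal reads.

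The 23 near-silent members had 1 to 20 reads each over all 12 libraries, and 11 of them had a single read. There are 8 class I receptors outside the run among them, with 16 reads together. OR51E2, a receptor for short-chain fatty acids known from prostate, had 3 reads and its relative OR51E1 had 1. OR52B4, OR51T1 and OR52E2 also had 1 each, OR52H1 2, OR52B6 3 and OR52N2 4. The reads of OR52N2 can be shared with TRIM5, which overlaps it.

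The other 15 are class II receptors, with 49 reads together. OR4A16 had 20, OR5P3 6 and OR5P2 2. OR4C6, OR5B2, OR10V1 and OR10S1 had 3 each, the 3 of OR5B2 all from GFP_tracer 1, and OR5B21 had 2. OR10A6, OR5AK2, OR9Q1, OR5B12, OR4D5, OR6T1 and OR10G7 had 1 each. None was found in more than 5 libraries. No member had reads in both Dam-LMNB1 libraries of a clone and none in its tracer and uninduced libraries.

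Summed over the 23 genes, VP16_tracer_Dam had 7 and 1 reads, VP16_tracer 3 and 1, and VP16_uninduced 4 and 1. GFP_tracer_Dam had 21 and 4 reads, GFP_tracer 12 and 2, and GFP_uninduced 7 and 2. The VP16 tracer with Dam-LMNB1 thus gave 8 reads in 2 libraries, against 4 with the tracer alone and 5 without induction. The exact 95% Poisson interval of the 7 reads was 2.81 to 14.4 and that of the 3 reads was 0.619 to 8.77. These intervals overlap, and no test of a difference was made. Such intervals cover counting error only. A count of 0 for a gene in a library allows up to 3 reads, or 0.121 to 0.160 CPM.

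More of these reads lay in index set 1 than in set 2 in every group. Set 1 held 54 reads (95% Poisson interval 40.6 to 70.5), or 0.414 CPM, and set 2 held 11 (5.49 to 19.7), or 0.0796 CPM, a ratio of 5.2. The run had a ratio of 0.985 between the sets, olfactory receptor genes of other chromosomes 1.25, bitter taste receptors 0.939, defensins 1.5 and keratin-associated proteins 3.06. OR4A16 gave 18 of the reads of set 1, 13 of them in GFP_tracer_Dam 1, and 2 of the reads of set 2. Without OR4A16 the sets held 36 and 9 reads. Without the first libraries of GFP_tracer_Dam and GFP_tracer, the other 4 libraries of set 1 held 21 reads.

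**Figure D5:**
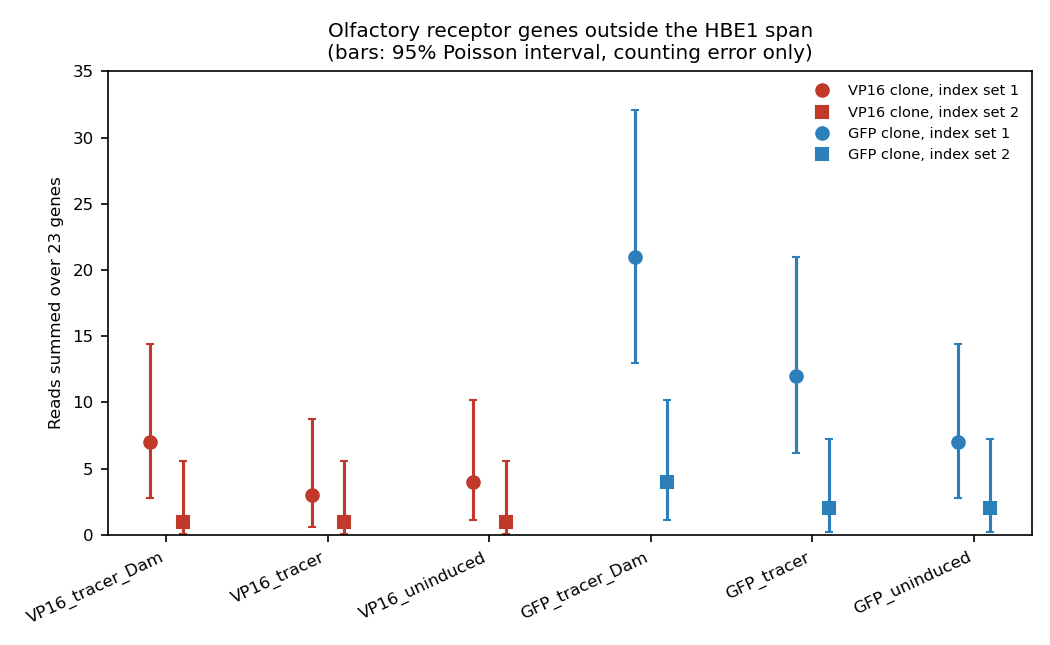
Reads summed over the 23 genes outside the HBE1 span in each library, with exact 95% Poisson intervals (bars, counting error only); circles are index set 1, squares index set 2, red the VP16 clone and blue the GFP clone. In every group the library of set 1 has more reads than that of set 2, with 21 against 4 in GFP_tracer_Dam.

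Promoter windows of the near-silent genes were mostly low in GC content. RefSeq promoter windows on GRCh38.p14, from 250 bases before to 50 after the start, were matched for 19 of the 33 members, all near-silent. Their median GC content was 38.0%, against 58.7% over 35116 windows of all genes and 37.7% over 324 windows of olfactory receptors. The median number of CpG in a window was 1, against 14 over all genes. TAATTA, a core that homeodomain proteins such as LHX2 bind and that reads the same on both strands, was found in 6 of 19 windows (31.6%), in 22.2% of olfactory receptor windows and in 4.84% of all windows. CCCNNGGG, a core of EBF sites that also reads the same on both strands, was in 0 of 19, in 8.02% of olfactory receptor windows and in 19.1% of all windows. These matches describe letters, not bound sites. In the windows of OR4A16, OR5B21 and some others, the 50 bases after the start begin with ATG. The start used there may be that of the coding sequence, and whether such windows hold the promoter was not tested. The windows of OR4A16, which had the most reads outside the run, and of its neighbour OR4C6, with 3 reads, are shown with TAATTA in capitals (plus strand, chr11:55342951-55343250 and chr11:55661951-55662250).
OR4A16: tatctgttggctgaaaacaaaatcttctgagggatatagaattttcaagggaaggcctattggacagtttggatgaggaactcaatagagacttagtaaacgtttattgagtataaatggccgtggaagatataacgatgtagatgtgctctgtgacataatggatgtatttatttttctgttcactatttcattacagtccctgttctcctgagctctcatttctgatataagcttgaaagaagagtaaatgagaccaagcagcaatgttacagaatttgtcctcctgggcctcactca
OR4C6: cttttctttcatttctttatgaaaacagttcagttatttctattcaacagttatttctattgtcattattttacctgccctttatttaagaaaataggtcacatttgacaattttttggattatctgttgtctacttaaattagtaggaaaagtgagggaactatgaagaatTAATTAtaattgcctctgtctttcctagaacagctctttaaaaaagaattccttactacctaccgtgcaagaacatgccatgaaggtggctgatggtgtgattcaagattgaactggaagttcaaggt
OR4A16 also lies 1955405 bases from the nearest other gene with a mean of 1 CPM, TNKS1BP1, and the median of that distance over the 23 genes was 104 kb.

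Genes that act with the receptors were counted as lists. Of 21 genes of olfactory signal transduction, 19 were in the table and 7 reached 1 CPM, among them GNB1, a G protein β subunit (484 CPM), ADCY3 (114 CPM) and PDE4A, a phosphodiesterase (43.1 CPM). These 3 act in many cell types. CNGA2, a subunit of the olfactory channel, had 2 reads, and OMP, the olfactory marker protein, had 55. Of the 10 genes tested, 0 passed in any comparison by edgeR. With the block, GNB1 (log2 0.15, adjusted p = 0.0277) and PDE4A (0.27, adjusted p = 0.0347) were higher and PDE1C, another phosphodiesterase (-0.71, adjusted p = 0.0194), was lower in the VP16 clone. Without the pair that stands apart, the block fit gave 0.15 for PDE4A (adjusted p = 0.025) and -0.62 for PDE1C (adjusted p = 0.113), which no longer passed. Without pair and block PDE1C was at -0.16 and PDE4A at 0.12 (edgeR adjusted p = 0.871 and 0.333).

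Of 12 factors of receptor choice, 9 were in the table and 6 were tested. LHX2, a homeodomain factor of receptor enhancers, had 6 reads, whereas its partner LDB1 had 57.2 CPM, the lamin B receptor LBR 123.9 CPM, the stress factor ATF5 38.1 CPM and the histone demethylase KDM1A 155.2 CPM. In the VP16 clone EBF3 was higher, at 1.70 CPM against 0.281 CPM in the GFP clone (edgeR log2 2.61 ± 0.37 SE, adjusted p = 0.00517). EBF1, also an olfactory neuron transcription factor, was lower, at 0.958 CPM against 3.66 CPM (edgeR log2 -1.85 ± 0.34 SE, adjusted p = 0.0147). EBF1 stood at 7.02 and 5.64 CPM in the first libraries of GFP_tracer_Dam and GFP_tracer, and at 1.77 to 2.74 CPM in the other 4 GFP libraries. Without the pair it was still lower in the VP16 clone (-1.25, edgeR adjusted p = 0.00671), and EBF3 was still higher (2.15, adjusted p = 0.00224). With the block KDM1A was also called higher (0.30, edgeR adjusted p = 0.0475). KDM1A had 106.5 and 118.0 CPM in the pair that stands apart and 140.3 to 164.1 CPM in the other 4 GFP libraries, and without the pair its block value was 0.14 (adjusted p = 0.0126) and its value without the block 0.11 (edgeR adjusted p = 0.363). No factor was called within a clone.

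Other genes of the short arm and of the lamina were set beside the receptors. Some TRIM genes stand among the class I receptors. TRIM3 (chr11:6469843-6495689) and TRIM66 (chr11:8633584-8693413) lie past the last class I member, which ends at 5842578. Of the TRIM genes listed, 7 of 8 reached 1 CPM, led by TRIM5 (51.2 CPM), a restriction factor of retroviruses. None of the 7 tested passed without the block. With it, TRIM22 (-0.93, edgeR adjusted p = 0.00258), TRIM66 (-0.74, adjusted p = 0.0464) and TRIM6 (-0.40, adjusted p = 0.0263) were lower in the VP16 clone. TRIM66 averaged 16.3 CPM in the VP16 clone, against 47.6 and 39.1 CPM in the pair that stands apart and 14.8 to 25.01 CPM in the other 4 GFP libraries. Without the pair the block fit gave -0.32 for TRIM66. All 11 genes of the lamina and of H3K9 methylation exceeded 1 CPM, led by LMNA (747 CPM), and 0 were called in any comparison by edgeR, with or without the block. Without the pair, the block fit gave clone differences of -0.16 for LMNB1 and -0.21 for LMNB2, both B-type lamins, and 0.17 for TMPO.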

How the data were processed

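RNA was measured in 12 libraries of HT1080 clones. The authors deposited 1 table of raw read counts per Ensembl gene. Per the submitters' processing notes, TopHat 1.4.0, Bowtie 0.12.7 and HTSeq were used with GRCh37; the sources used here do not give its strand and overlap settings. CPM are counts per 1000000 of the library total.

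Tests used edgeR 4.0.16 in R 4.3.3 (filterByExpr, TMM, 1 coefficient per group, robust quasi-likelihood, 6 residual degrees of freedom, 17262 genes, Benjamini-Hochberg). Alternatives were RLE factors, DESeq2 1.42.0, other filters (no filter, 10 counts), the index set as a block, and leaving out libraries. Counts within an index set deviated together in all 15 pairs of groups (r from 0.415 to 0.858); the sets were read from the index sequences in the titles and pair the libraries. Replicates were not duplicates (chi-square per degree of freedom 22.0 to 144). The fit was tested on simulated counts of 16690 genes for VP16_tracer_Dam against VP16_tracer, and it made 4 false calls. It recovered 6 of 64 genes changed 1.5-fold, 42 of 67 changed 2-fold and 64 of 66 changed 4-fold. The simulated counts had the same spread for every gene and no index-set effect, unlike the real libraries. SE is the absolute change over the root of F.

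The members and gene lists were chosen with earlier results of these data known. Named genes were the members with the most reads, those called or kept by the filter, and up to 4 per list by level with those called; 1 gene of a list is not reported here. Leaving out libraries with the block, leaving out the first libraries of GFP_tracer_Dam and GFP_tracer, fitting the VP16 libraries alone and taking each index set alone were alternatives chosen after seeing the data. The split into a run and the rest was made after the counts were seen. The intervals and floors use a 95% level and 3 counts.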

Additional observations from a re-analysis of the deposited data

Results flagged for a closer look

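OR51B2 had log2 changes of opposite sign in the clones on induction of Dam-LMNB1 with the tracer. Tracer_Dam against tracer gave log2 changes of -0.26 and -0.17 in index sets 1 and 2 of the VP16 clone, against 0.057 and 0.32 in the GFP clone, a difference of -0.41 (-0.405) between the means; both GFP libraries of set 1 in it are the pair that stands apart. OR51B5 did so for tracer against uninduced, with -0.46 and -0.11 in the VP16 clone against 0.20 and 0.099 in the GFP clone, a difference of -0.43 (-0.431). These were the 2 cases with opposite directions in every pair of libraries among 33 examined, which were 3 contrasts for each of the 10 genes of the run and their sum. The rule looks only at signs. How many such cases would arise with no difference between the clones was not worked out, so the 2 may be no more than that. For OR51B2 the edgeR test of the difference gave an adjusted p of 1, and for OR51B5 the difference was not tested.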

How the results depend on the processing

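The count of members lower in the VP16 clone than in the GFP clone was 1 of 10 tested without the block. By DESeq2 it was 3 of 10, where 1309 of 19517 genes tested were called lower. With no filter it was 2 of 33, where 1028 of 36502 were. With the index-set replicate block it was 5 of 10, where 2051 of 17262 were. It was 1 to 2 without each library in turn (2, with OR51B4, without GFP_tracer 1 or GFP_tracer_Dam 1) and 2 to 5 without each with the block (4 in 4 of 12 such fits); without the first libraries of GFP_tracer_Dam and GFP_tracer it was 2, and 7 with the block. OR51B2 was called in each of these fits, with an adjusted p of 2.79e-06 to 0.0473. The genes called in that comparison, 1318, were 2092 by DESeq2, 3609 with the block, 5855 with the block and without that pair, and 543 to 2221 without each library. Of all genes tested, 1201 of 17558 were called lower without that pair, and 3066 of 17558 with the block as well. Without each library in turn 385 to 1259 genes were called lower, and 1207 to 2725 with the block, of 17912 to 18121 tested. The VP16 libraries alone with the block called 13, 139 and 1573 genes for tracer_Dam against tracer, tracer against uninduced and tracer_Dam against uninduced, 1 member (OR51B5) in the last; the block changed no other call of a member.

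The log2 ratio of the summed CPM changed where the 10 genes of the run were left out, since 65 reads remain. Without members kept by the filter it was 0.86, -0.48 and 0.38 in the VP16 clone for tracer_Dam against tracer, tracer against uninduced and tracer_Dam against uninduced (-0.18, -0.13 and -0.31 with all members). In the GFP clone it was 0.59, 0.82 and 1.41 (1.405), with -0.17, -0.12 and -0.30 for all members. Without members that overlap another gene it was 0.29 for tracer_Dam against tracer and 0.16 for tracer_Dam against uninduced in the VP16 clone. In the GFP clone it was 0.41, 2.20 and 2.61, with 2.17 members detected per library in place of 13.8. All these GFP values include 13 reads of OR4A16 in GFP_tracer_Dam 1 and 3 in GFP_tracer 1, the pair that stands apart. They were not worked out without that pair. Adding pseudogenes gave -0.19 for VP16_tracer_Dam against VP16_uninduced, and leaving out OR51B4 gave -0.039 for GFP_tracer against GFP_uninduced. The cause of the last pair was not tested. Depth limits the 23 near-silent genes, with 1 to 21 reads per library.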

Other observations

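Olfactory receptor genes of other chromosomes were mostly silent too. Of the 71 such genes listed, 60 had at most 10 reads, and OR2W3 alone held 742 of their 1229 reads (60.4%). Among 37 olfactory receptor pseudogenes of chromosome 11, OR7E12P held 6451 of 8919 reads (72.3%), outside the run. The sum over the 5 pseudogenes inside the run was 5.56 ± 0.798 CPM in VP16_tracer_Dam, 5.65 ± 0.583 in VP16_tracer and 5.86 ± 0.534 in VP16_uninduced. In the GFP clone it was 9.99 ± 3.90 CPM in GFP_tracer_Dam, 10.1 ± 1.01 in GFP_tracer and 11.2 ± 1.70 in GFP_uninduced (SD of 2 libraries each).

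The median over the 33 olfactory receptor genes was 3 reads per gene, against 43 over 17 bitter taste receptors, another receptor family, which had 1838 reads together. Among the mesenchymal markers THY1 (log2 -2.17, edgeR adjusted p = 0.00985) and MMP2 (-0.76, adjusted p = 0.00737) were lower and SPARC (0.43, adjusted p = 0.0269) was higher in the VP16 clone than in the GFP clone.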
